A study of Rattus norvegicus with 14 samples.

Results

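Mast cell proteases and receptors were followed across 14 rat peritoneal tissues, 11 mesotheliomas and 3 controls. The set was listed by gene name, by a rule that uses no measured value but was written with earlier results of these data known: Mcpt10, Mcpt1, Mcpt2, Cma1, Cpa3, Tpsab1, Tpsb2, Ms4a2, Fcer1a and Kit. Of these 10 genes, 9 had at least 1 probe set annotated to them alone, among 14217 genes with such a probe set on the array. No probe set carried the symbol Mcpt2, so no value is given for it. For Ms4a2 the brighter of 2 probe sets was used, and the other 8 genes had 1 probe set each.

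The 11 malignant mesotheliomas came from different male Wistar rats and followed 1 intraperitoneal dose of multiwalled carbon nanotubes (MWCNTs) or of amosite, a fibrous asbestos, in artificial lung medium. MWCNT B gave 2 tumors (replicate 1 epithelioid, replicate 2 sarcomatoid), MWCNT C gave 3 (replicates 1 and 2 sarcomatoid, replicate 3 biphasic), MWCNT D gave 3 (replicate 1 epithelioid, replicate 2 sarcomatoid, replicate 3 biphasic), and amosite gave 3 (replicate 1 epithelioid, replicate 2 biphasic, replicate 3 sarcomatoid). By type there were 5 sarcomatoid tumors (spindle-shaped cells), 3 epithelioid tumors and 3 biphasic tumors, which hold both patterns. The 3 controls were peritoneal tissues of male Wistar rats. The labels name them sham-treated, and the methods name them untreated. Ages and times after injection were not given in the labels. MWCNT B had no biphasic tumor and MWCNT C no epithelioid tumor. Each combination of inducer and type that was present held 1 tumor, except MWCNT C sarcomatoid with 2. The effects of inducer and type could thus be separated only by a fit with both. Total RNA was hybridised to Affymetrix rat expression arrays, 1 array per rat, and levels are given as log2(signal + 1) of the normalised probe set signal.

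Mast cells are long-lived immune cells of connective tissue and mucosa, and the rat peritoneal cavity is a classical source of them. Their granules store serine proteases, the chymases and tryptases, together with carboxypeptidase A3, bound to the heparin proteoglycan built on serglycin. On their surface the high-affinity IgE receptor, with Fcer1a as the IgE-binding chain and Ms4a2 as the signal-amplifying beta chain, triggers release of the granules, and the receptor tyrosine kinase Kit, which binds stem cell factor (Kitlg), keeps them alive. In the rat, the chymases called rMCP-1 and rMCP-2 are known as marks of connective tissue and mucosal mast cells, respectively.

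The names of these chymases overlapped between sources. The probe set read here as Mcpt1 belongs to a gene whose synonyms in RefSeq include both rMCP-1 and rMCP-2, whereas a neighbouring gene, Mcpt1l1, carries rMCP-1 as a synonym too. The promoter windows of Mcpt1 and Mcpt1l1 are shown because these genes share a synonym and are close copies, and those of Cpa3 and Fcer1a because these genes moved together across the tumors. Each window, from the RefSeq promoters of assembly GRCr8, holds 250 bases before and 50 after the start used there, which for Cpa3 and Fcer1a lies inside the outermost boundary of the annotated gene. Windows are read 5′ to 3′ along the gene, at chr15:33841356-33841655 on the plus strand (Mcpt1), chr15:33876846-33877145 on the minus strand (Mcpt1l1), chr2:104673188-104673487 on the minus strand (Cpa3) and chr13:88224630-88224929 on the minus strand (Fcer1a). Capitals mark AGATAA or TGATAA, 2 forms of the GATA motif, on either strand.
Mcpt1: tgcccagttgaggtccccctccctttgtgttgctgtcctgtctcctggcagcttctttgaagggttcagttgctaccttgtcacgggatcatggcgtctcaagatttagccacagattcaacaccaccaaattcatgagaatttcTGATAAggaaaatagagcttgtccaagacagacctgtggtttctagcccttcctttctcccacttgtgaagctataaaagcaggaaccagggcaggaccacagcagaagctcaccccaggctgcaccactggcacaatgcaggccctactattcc
Mcpt1l1: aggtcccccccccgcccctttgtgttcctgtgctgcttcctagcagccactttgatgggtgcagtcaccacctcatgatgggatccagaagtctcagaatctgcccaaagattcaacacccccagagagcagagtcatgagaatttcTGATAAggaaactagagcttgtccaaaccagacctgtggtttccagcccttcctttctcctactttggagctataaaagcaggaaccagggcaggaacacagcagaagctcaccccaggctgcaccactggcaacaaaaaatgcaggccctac
Cpa3: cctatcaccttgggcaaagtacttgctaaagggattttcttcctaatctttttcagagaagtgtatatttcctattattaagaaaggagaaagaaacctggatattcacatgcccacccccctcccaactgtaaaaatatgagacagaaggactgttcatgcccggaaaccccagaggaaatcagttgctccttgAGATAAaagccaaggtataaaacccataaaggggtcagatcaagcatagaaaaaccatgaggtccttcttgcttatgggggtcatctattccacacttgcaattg
Fcer1a: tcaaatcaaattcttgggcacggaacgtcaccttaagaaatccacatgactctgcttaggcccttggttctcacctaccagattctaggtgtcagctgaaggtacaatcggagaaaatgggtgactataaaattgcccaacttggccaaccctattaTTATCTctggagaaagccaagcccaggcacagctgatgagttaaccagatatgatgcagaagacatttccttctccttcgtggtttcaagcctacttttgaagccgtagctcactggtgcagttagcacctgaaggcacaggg
An alignment of the Mcpt1 and Mcpt1l1 windows matched 243 of 300 bases (81.0%), against 144 (48.0%) for Mcpt1 and Cpa3. Promoter windows were found for 7 of the 9 measured genes (Mcpt1, Cma1, Cpa3, Tpsab1, Tpsb2, Fcer1a and Kit). Of these 7, 4 held AGATAA or TGATAA (Mcpt1, Cma1, Cpa3 and Fcer1a), as did 6340 of all 33469 windows (18.9%). The E-box letters CACATG were present in 3 of the 7 (Cpa3, Tpsb2 and Fcer1a) and in 4675 of all windows (14%), searched on both strands. These matches are letters in a window and were not tested as binding sites.

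A few properties of the arrays touch the comparisons with controls. All 7 skeletal muscle markers were lower in tumors, and their summed signal was 1100000 to 1120000 in the controls against 174 to 246 in the tumors. The median log2 difference over all 31042 tested probe sets was 0.34, and 70.2% of the called probe sets were higher in tumors. That share was 52.4% after quantile normalization and 46.6% after centring each array on its median, with median differences of -0.02 and -0.10. A pancreatic acinar signal was present in MWCNT D replicate 2 and amosite replicate 1, where 10 acinar markers summed to 669000 and 884000, against 535 to 1350 on the other arrays.

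**Figure D1:**
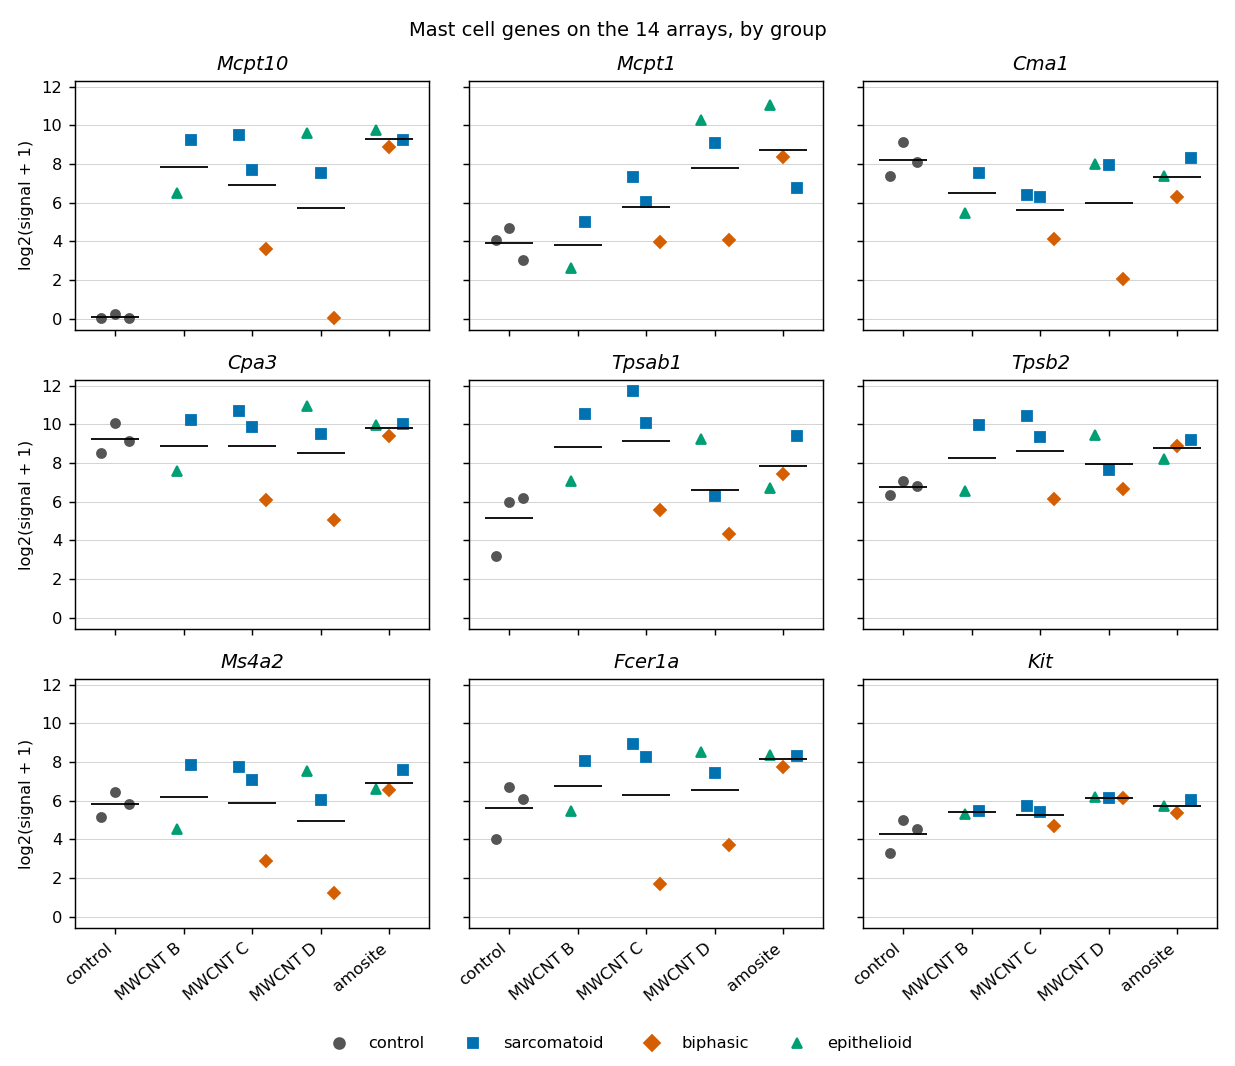
Level of each of the 9 measured mast cell genes, log2(signal + 1), on every array, with 1 panel per gene, the 5 groups on the x axis, points coloured and shaped by tumor type, and a bar at the group mean. Mcpt10 lies at 0.01 to 0.25 in the controls, Cpa3 and Cma1 are present there, and the biphasic MWCNT C and MWCNT D tumors are the low points of most panels.

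The proteases of the chymase cluster differed in how controls and tumors stood to each other. Mcpt10, a serine protease gene of this cluster with the RefSeq synonyms GLP-2 and rMCP-10, is not named a chymase there. A further probe set is annotated to it together with Mcpt8l2, Mcpt9 and Mcpt8, and which cells carry the Mcpt10 signal was not tested. Mcpt10 was near the bottom of the scale in the controls, at 0.01, 0.25 and 0.01. In replicate order the tumors gave 6.48 and 9.24 for MWCNT B, 9.51, 7.70 and 3.58 for MWCNT C, 9.58, 7.53 and 0.01 for MWCNT D, and 9.74, 8.88 and 9.24 for amosite. Thus 10 of 11 tumors lay above every control, and the biphasic MWCNT D tumor lay among the controls. Mcpt10 rose in tumors by 7.32 on the log2 scale (SE 1.68, limma adjusted p = 0.0021, exact permutation p = 0.011). The size of this difference depends on how low signals are treated, because raising all log2 levels below 5 to 5 gave 2.99 (limma adjusted p = 0.03).

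Mcpt1 had control levels of 4.06, 4.67 and 3.04. The tumors gave 2.60 and 4.98 for MWCNT B, 7.34, 6.02 and 3.96 for MWCNT C, 10.25, 9.07 and 4.06 for MWCNT D, and 11.05, 8.38 and 6.76 for amosite. In all, 8 tumors exceeded every control, and the SD was 2.74 among tumors (n = 11) against 0.82 among controls (n = 3). The mean difference of 2.85 did not pass the test (SE 1.52, limma adjusted p = 0.13). The highest levels, 11.05 and 10.25, were in epithelioid tumors, as was the lowest, 2.60. The reading of 11.05 came from amosite replicate 1, and the level of 9.07 from MWCNT D replicate 2, the 2 arrays with pancreatic signal, whose part in Mcpt1 was not tested.

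Mcpt1l1, the close copy of Mcpt1, was present in the controls at 8.92, 10.06 and 9.60. Its tumor levels ran from 3.05 in MWCNT D replicate 3 to 10.69 in MWCNT B replicate 2, and its mean difference of -1.04 did not pass the test (limma adjusted p = 0.50). Signals of the chymase copies can be mixed by cross-hybridisation, which was not tested.

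Cma1, the chymase also named Mcpt5, showed the opposite position of controls and tumors. Its controls were at 7.36, 9.11 and 8.08. The tumors gave 5.44 and 7.54 for MWCNT B, 6.39, 6.27 and 4.12 for MWCNT C, 8.01, 7.92 and 2.06 for MWCNT D, and 7.40, 6.30 and 8.32 for amosite. In total 6 tumors were below every control and none was above all of them. Over all 11 tumors the difference of -1.84 did not pass the test (SE 1.06, limma adjusted p = 0.16, exact permutation p = 0.077).

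Cpa3, the exopeptidase that is stored with the chymases, was at 8.50, 10.05 and 9.15 in the controls. The tumors gave 7.56 and 10.20 for MWCNT B, 10.69, 9.87 and 6.08 for MWCNT C, 10.93, 9.49 and 5.05 for MWCNT D, and 9.96, 9.39 and 10 for amosite. In total 3 tumors lay above and 3 below the control range, with 5 inside it. The mean difference was -0.21 with a 95% interval of -2.52 to 2.10, which leaves room for several-fold changes either way.

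The tryptases were more variable among tumors than among controls. Tpsab1, also named Mcpt7, was at 3.21, 6.0 and 6.19 in the controls. The tumors gave 7.07 and 10.55 for MWCNT B, 11.70, 10.08 and 5.55 for MWCNT C, 9.22, 6.28 and 4.31 for MWCNT D, and 6.71, 7.42 and 9.42 for amosite. In all, 9 tumors exceeded all controls, the exceptions being the biphasic MWCNT C and MWCNT D tumors, and the difference of 2.89 missed the threshold (SE 1.33, limma adjusted p = 0.08). Leaving out MWCNT D replicate 3 gave 3.27, which passed (limma adjusted p = 0.035).

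Tpsb2, also named Mcpt6, was at 6.35, 7.09 and 6.81 in the controls. Its tumor levels were 6.54 and 9.96 for MWCNT B, 10.43, 9.33 and 6.15 for MWCNT C, 9.47, 7.65 and 6.68 for MWCNT D, and 8.23, 8.90 and 9.20 for amosite. In all, 8 tumors exceeded all controls, and the difference was 1.67 (SE 0.81, limma adjusted p = 0.097). Without MWCNT C replicate 3 it was 1.89 and passed the test (limma adjusted p = 0.043). The 4 tumors with the highest Tpsb2 levels other than MWCNT D replicate 1 were sarcomatoid, as were the 3 highest for Tpsab1, whereas the fifth sarcomatoid tumor, MWCNT D replicate 2, was among the 4 lowest for both genes.

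Neither Fcer1a nor Ms4a2 of the IgE receptor passed the test over all tumors. Fcer1a was at 4.04, 6.69 and 6.11 in the controls. The tumors gave 5.47 and 8.04 for MWCNT B, 8.93, 8.25 and 1.71 for MWCNT C, 8.54, 7.41 and 3.69 for MWCNT D, and 8.36, 7.75 and 8.32 for amosite. In total 8 tumors were above and 2 below all controls, and the difference was 1.34 (95% interval -1.5 to 4.17). Ms4a2 was at 5.16, 6.43 and 5.84 in the controls. Its tumor levels were 4.54 and 7.86 for MWCNT B, 7.72, 7.05 and 2.89 for MWCNT C, 7.52, 6.04 and 1.23 for MWCNT D, and 6.62, 6.53 and 7.58 for amosite. In total 7 tumors were above and 3 below all controls, and the difference was 0.16 (95% interval -2.43 to 2.74). The second Ms4a2 probe set gave 0.97 (95% interval -0.83 to 2.77), with control levels of 2.86 to 4.41 and tumor levels of 1.74 to 6.45.

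Kit was dim on all arrays and varied little among tumors (SD 0.47, n = 11), but more among controls (SD 0.90, n = 3). Its controls were at 3.29, 5.02 and 4.55. The tumors gave 5.33 and 5.46 for MWCNT B, 5.75, 5.43 and 4.67 for MWCNT C, 6.19, 6.14 and 6.12 for MWCNT D, and 5.75, 5.35 and 6.05 for amosite. All tumors except MWCNT C replicate 3 exceeded every control. Kit rose by 1.37 (SE 0.35, limma adjusted p = 0.004, exact permutation p = 0.011), but fell short of a 2-fold change in 4 alternatives, at 0.98 after quantile normalization, 0.92 after median centring, 0.89 with 16 added to the signal and 0.68 with levels raised to 5. It also missed the threshold without control replicate 1, at 0.87.

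Kit is expressed by other cells as well. Both markers of interstitial cells of Cajal on the list were higher in tumors, with Ano1 by 3.73 (limma adjusted p = 0.0016) and Etv1 by 1.86 (limma adjusted p = 0.037). Their signals summed to 190 to 276 on control arrays and to 259 to 3060 on tumor arrays. Of 4 melanocyte markers, 1 was called (Pmel), and Mlana stood at 10.17 in MWCNT D replicate 1, where Kit was highest, against 4.23 to 5.55 on the other arrays. Kit was nearly as high in MWCNT D replicates 2 and 3, at 6.14 and 6.12. In these replicates the melanocyte markers summed to 203 and 229, against 1700 in replicate 1, and the Cajal cell markers to 259 and 2650. With levels raised to 5, Etv1 and Pmel missed the threshold (limma adjusted p = 0.054 and 0.052). Their part in the Kit signal was not tested.

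Together, 2 of the 9 measured genes passed both thresholds (adjusted p below 0.05, change above 2-fold) in tumors against controls, and both were higher (Mcpt10 and Kit). Over all probe sets 34.9% were called, 24.5% higher and 10.4% lower. The 2 higher calls of 9 are near the share of 24.5%, and nothing is read from their count. The median log2 difference of the 9 genes was 1.37 against 0.34 over all probe sets. In whole tissue, a difference in the number of mast cells and a difference in RNA per mast cell cannot be told apart.

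**Figure D2:**
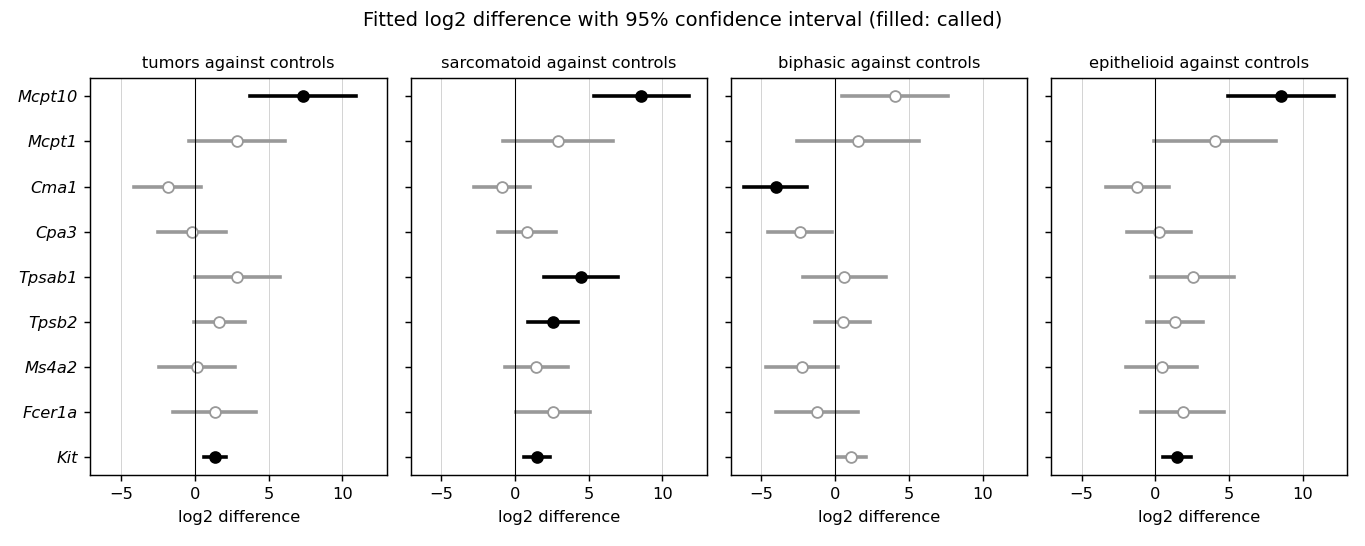
Fitted log2 difference from the 3 controls with its 95% confidence interval for each gene, in all 11 tumors and in each tumor type, with filled points for called genes. Mcpt10 and Kit were called in all tumors together and in sarcomatoid and epithelioid tumors, the tryptases Tpsab1 and Tpsb2 in sarcomatoid tumors, and Cma1, lower, in biphasic tumors.

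The genes called against controls were not the same in each tumor type, but none of the set was called between types. In sarcomatoid tumors 4 of 9 genes were higher and none lower, with 34.2% of all probe sets called in that comparison. These were Mcpt10 by 8.56 (SE 1.48, limma adjusted p = 0.00048), Tpsab1 by 4.47 (SE 1.16, limma adjusted p = 0.0067), Tpsb2 by 2.57 (SE 0.77, limma adjusted p = 0.014) and Kit by 1.48 (SE 0.40, limma adjusted p = 0.0085). Mean levels in the 5 sarcomatoid tumors were 8.65 ± 0.95 for Mcpt10, 9.61 ± 2.04 for Tpsab1, 9.32 ± 1.05 for Tpsb2 and 5.77 ± 0.33 for Kit (SD, n = 5). The median difference of the 9 genes was 2.57, against 0.31 over all probe sets. Without control replicate 1, 2 genes were called (Mcpt10 and Tpsab1), since Tpsb2 (2.37) and Kit (0.98) missed the threshold. Kit also fell short of a 2-fold change with 16 added to the signal (0.97) or with levels raised to 5 (0.76). Fcer1a, at 2.58 (limma adjusted p = 0.079), passed without MWCNT C replicate 3 or without amosite replicate 2 (limma adjusted p = 0.043 and 0.018), and Mcpt1, at 2.91, passed without MWCNT B replicate 1 (limma adjusted p = 0.041). The second Ms4a2 probe set was called (1.91, limma adjusted p = 0.032) whereas the main one was not (1.44, limma adjusted p = 0.25).

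In biphasic tumors 1 of 9 genes was called, Cma1, which was lower by a log2 difference of -4.02 (SE 0.98, limma adjusted p = 0.0053). Again 34.2% of all probe sets were called. Cma1 averaged 4.16 ± 2.12 (SD, n = 3) there against 8.18 ± 0.88 (SD, n = 3) in the controls, and all 3 biphasic tumors lay below all controls. Mcpt10 differed by 4.07 without passing (limma adjusted p = 0.061), with its biphasic levels at 3.58, 0.01 and 8.88. With low levels raised to 5 its difference was 1.29 (limma adjusted p = 0.41). These 3 tumors were unlike each other, with amosite replicate 2 the highest of the 3 for every gene except Kit. Without amosite replicate 2, 4 genes were lower in biphasic tumors, adding Cpa3 (-3.67), Ms4a2 (-3.75) and Fcer1a (-2.92). Mcpt10 was called higher without MWCNT D replicate 3 (6.14), but was at 1.71 without amosite replicate 2 (limma adjusted p = 0.24). Kit was called without control replicate 2 (1.46) or without MWCNT C replicate 3 (1.44), and Cpa3 without MWCNT B replicate 1 (-2.39).

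In epithelioid tumors 2 of 9 genes were called, both higher, with 34.2% of all probe sets called. Mcpt10 rose by 8.51 (SE 1.66, limma adjusted p = 0.0013) and Kit by 1.47 (SE 0.45, limma adjusted p = 0.018). The epithelioid levels of Mcpt10 were 6.48, 9.58 and 9.74. Mcpt1 read 2.60 in MWCNT B replicate 1 but 10.25 and 11.05 in the other epithelioid tumors, and passed the test only without the former (6.72, limma adjusted p = 0.0024). The Kit call was lost without control replicate 1 (0.97) or without MWCNT D replicate 1 (1.25), and under the same 4 alternatives as in all tumors (0.75 to 0.96).

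Between tumor types no gene of the set was called by limma. Sarcomatoid against biphasic tumors had 0 of 9 called, with 0.248% of all probe sets called, although 7 of the 9 had an unadjusted p below 0.05. All 9 differences were positive, from 0.39 for Kit to 4.49 for Mcpt10, with a median of 3.21 against -0.01 over all probe sets. Without amosite replicate 2, 4 genes passed, Mcpt10 (6.85), Cpa3 (4.49), Ms4a2 (5.19) and Fcer1a (5.49). Sarcomatoid against epithelioid tumors had 0 of 9 called and 0 with an unadjusted p below 0.05, with 0.76% of all probe sets called and gene differences of -1.13 to 1.94. For biphasic against epithelioid tumors, 0% of all probe sets were called, 0 of 9 genes passed, and 5 had an unadjusted p below 0.05, with differences of -4.44 to -0.38. In all of these the intervals were wide, for instance 1.26 to 5.17 for Cpa3 in sarcomatoid against biphasic tumors.

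Grouped by inducer, Mcpt10 was higher than in controls with every material. Its difference was 7.77 (SE 2.35, limma adjusted p = 0.023) in MWCNT B tumors, where it was the 1 gene called of 9 and 30.1% of all probe sets were called. It was 6.84 (SE 2.10, limma adjusted p = 0.022) in MWCNT C tumors, again 1 of 9 against 32.1%. It was 5.62 (SE 2.10, limma adjusted p = 0.049) in MWCNT D tumors, where Kit was called too (1.86, SE 0.40, limma adjusted p = 0.0035), so 2 of 9 against 32.6%. In amosite tumors Mcpt10 differed by 9.20 (SE 2.10, limma adjusted p = 0.0048), Mcpt1 by 4.81 (SE 1.57, limma adjusted p = 0.029) and Kit by 1.43 (SE 0.40, limma adjusted p = 0.015), so 3 of 9 against 31.8%. With levels below 5 raised to 5, Mcpt10 was called in amosite tumors but not in MWCNT B (2.86), MWCNT C (2.40) or MWCNT D tumors (2.37). No gene of the set was called lower with any inducer.

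These calls by inducer rested on few arrays. The Mcpt10 call in MWCNT B tumors was lost without control replicate 1 or 3 or either tumor, with values of 6.39 to 9.15, and in MWCNT C tumors without control replicate 1 or 3 or tumor replicate 1 or 2, with values of 5.55 to 6.80. In MWCNT D tumors it was lost when any of 11 arrays was left out, the exceptions being MWCNT C replicates 1 and 3 and MWCNT D replicate 3, with values of 3.68 to 5.70. Without MWCNT C replicate 3, the MWCNT C tumors had 4 called genes, adding Tpsab1 (5.76), Tpsb2 (3.13) and Kit (1.3). Without MWCNT D replicate 3, Mcpt1 was called in MWCNT D tumors (5.74) and Cma1, lower, in MWCNT C tumors (-2.59). Without control replicate 2, Kit was called in MWCNT B (1.48) and MWCNT C tumors (1.36).

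In amosite tumors the Mcpt1 call was lost without control replicate 1 or 3 or amosite replicate 1 or 2 (3.65 to 4.98), and the Kit call without control replicate 1 (0.93) or amosite replicate 3 (1.26). Kit was not called there after quantile normalization (1.01, limma adjusted p = 0.056) or median centring (0.94), with 16 added (0.93), with levels raised to 5 (0.71) or with only the groups compared (limma adjusted p = 0.053). Mcpt1 was not called with levels raised to 5 (3.73) or without moderation (limma adjusted p = 0.052). Without the pair of arrays with pancreatic signal, Mcpt1 in amosite tumors was at 3.65 and not called (limma adjusted p = 0.10).

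MWCNT tumors against amosite tumors showed 0 of 9 genes called by limma, and 0% of all probe sets were called. Mcpt1 was the 1 gene with an unadjusted p below 0.05, at -2.94 with a 95% interval of -5.82 to -0.07 (limma adjusted p = 0.97). For Mcpt10 the difference was -2.45 (95% interval -6.30 to 1.40), for Cpa3 -1.03 (-3.73 to 1.66), and for Kit -0.11 (-0.85 to 0.63). The SD of Mcpt10 was 0.43 (n = 3) in amosite tumors against 3.04 and 5.04 (n = 3 each) in MWCNT C and MWCNT D tumors, and that of Cpa3 was 0.34 against 2.46 and 3.07. The low tumors in both MWCNT groups were the biphasic ones.

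**Figure D3:**
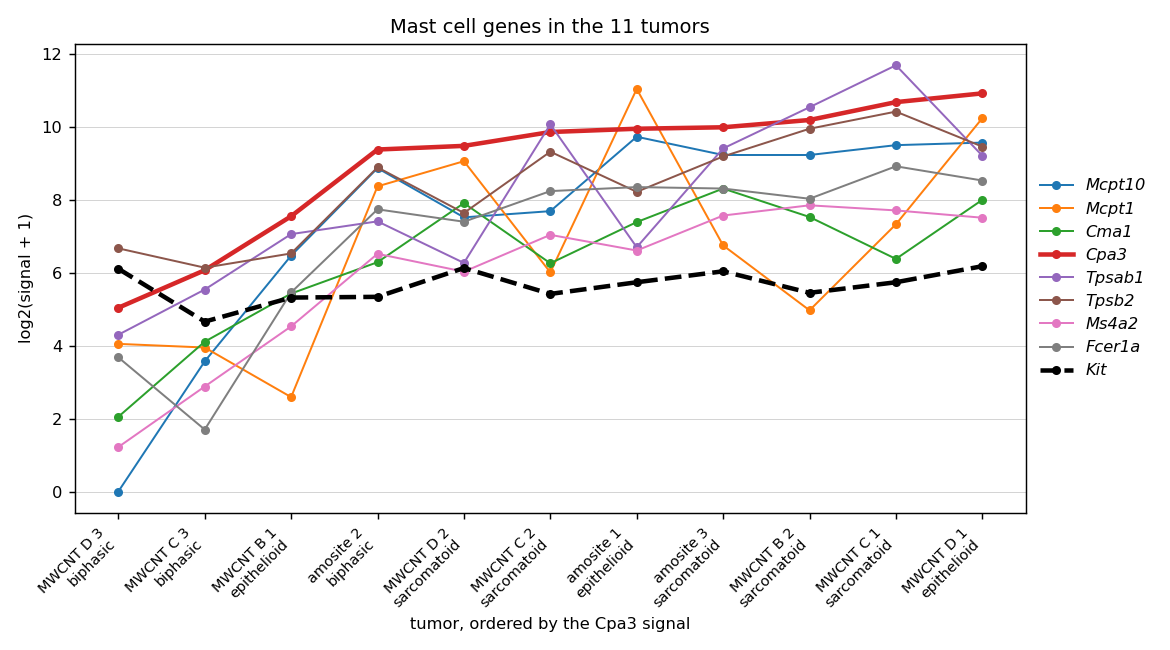
Levels of the 9 genes, log2(signal + 1), in each tumor, with tumors on the x axis ordered by Cpa3 and 1 line per gene. MWCNT D replicate 3 and MWCNT C replicate 3, at the left, are among the 3 lowest tumors for all genes, with the exception of Kit in the former, and Kit stays between 4.67 and 6.19.

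Across the 11 tumors most of these genes varied together, except Kit and, in part, Mcpt1. MWCNT C replicate 3 was among the 2 lowest tumors for all 9 genes, MWCNT D replicate 3 among the 3 lowest for 8 (the exception being Kit), and MWCNT B replicate 1 for 8. Of the 36 pairs, 24 had a permutation p below 0.05 after Benjamini-Hochberg adjustment, and the 28 pairs without Kit had a median Pearson r of 0.83, from 0.17 (Mcpt1 and Tpsab1) to 0.98 (Cpa3 and Ms4a2). Mcpt1 did not pass with Tpsab1, Tpsb2 (r = 0.46) or Ms4a2 (r = 0.56). Cpa3 and Ms4a2 had a Spearman rho of 0.92 (permutation p = 3e-05 for r and 0.00024 for rho, adjusted p = 0.00072 and 0.0022). Cpa3 and Fcer1a gave r = 0.94 and rho = 0.91 (permutation p = 0.00081 and 0.00031, adjusted p = 0.0024 and 0.0022). With MWCNT C replicate 3 and MWCNT D replicate 3 left out, the tumors farthest from the median of Cpa3, r was 0.92 and 0.96 for these pairs.

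Some pairs rested on those low tumors. Mcpt10 and Cma1 had r = 0.92 over 11 tumors (rho = 0.72, permutation p = 0.00069 and 0.016, adjusted p = 0.0023 and 0.039) but 0.53 without the same pair of tumors. Cma1 and Tpsb2 fell from r = 0.65 to 0.27, and Cma1 and Tpsab1 from 0.59 to 0.00. For the 2 tryptases, Tpsab1 and Tpsb2, other tumors were left out. Those farthest from the Tpsab1 median were MWCNT B replicate 2 and MWCNT C replicate 1, its highest. Without them r was 0.85 (0.90 over all, rho = 0.90, permutation p = 0.00016 and 0.00039, adjusted p = 0.00082 and 0.0023). This pair was not checked without the low tumors. Without the 2 farthest tumors of the first gene in each pair, 12 of 36 pairs had an adjusted p below 0.05. The 8 pairs with Kit ran from r = 0.08 to 0.50, and none passed.

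Similar patterns were looked for with Cpa3 (9.02 ± 1.93, SD, n = 11) and Tpsb2 (8.41 ± 1.47, SD, n = 11), whose probe sets were the brightest of the set in tumors. Among 7594 other genes with a mean log2 level of at least 8 in tumors, the 5 most like Cpa3 by Pearson r over 11 tumors were Mcpt1l1 (0.95), Kitlg (0.88), Nfkbil1 (0.84), Rpl24 (0.83) and Fam149a (0.80). Those most like Tpsb2 were Mtss1 (0.88), Ndufa6 (0.84), Npas2 (0.84), Spry2 (0.83) and Gyg1 (0.82). These r values describe 11 points that share array and tissue, and they were the highest of many. Kitlg, the ligand of Kit, was at 7.98 in MWCNT D replicate 3 and 9.77 in MWCNT C replicate 3, and at 9.86 to 11.99 in the other tumors, with controls at 8.88, 9.21 and 8.94. It was called higher in sarcomatoid (1.72, limma adjusted p = 0.014) and epithelioid tumors (1.89, limma adjusted p = 0.016) and not in biphasic ones (0.19).

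**Figure D4:**
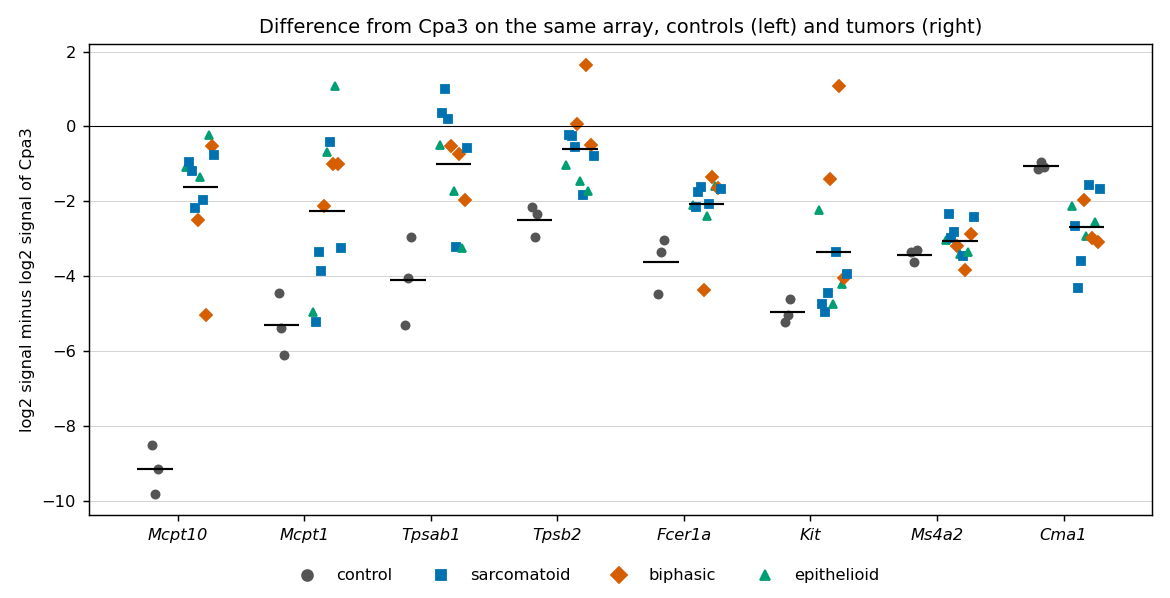
Log2 signal of 8 genes minus that of Cpa3 on the same array, with controls left and tumors right in each pair, points by tumor type and bars at the means. Since probe sets differ in brightness, only shifts between controls and tumors are read: Tpsb2 lies higher in all 11 tumors than in the controls and Cma1 lower in all 11, whereas the Mcpt10 points of the controls and of the lowest tumor follow Cpa3 alone.

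Because mast cell genes other than Kit mostly varied together, each gene was also set against Cpa3 on the same array. A generally high or low mast cell signal then does not shift the value, as long as both genes follow it equally. Mcpt10 could not be read this way, because it was at the bottom of the scale in all 3 controls and in MWCNT D replicate 3, where the difference is only the Cpa3 level with its sign turned. In the other 10 tumors Mcpt10 minus Cpa3 ran from -2.50 to -0.22. Tpsb2 minus Cpa3 ran from -2.96 to -2.15 among controls and from -1.84 to 1.63 among tumors, a shift of 1.88 with no overlap. Its highest values, 1.63 and 0.07, were in MWCNT D replicate 3 and MWCNT C replicate 3, where Cpa3 was lowest. There Tpsb2 itself was at 6.68 and 6.15, with controls at 6.35 to 7.09, so these values follow the low Cpa3 level. In the other tumors the difference ran from -1.84 to -0.24. Cma1 minus Cpa3 ran from -1.14 to -0.94 among controls and from -4.30 to -1.57 among tumors, a shift of -1.62 with no overlap. Both had an exact permutation p of 0.0055, the smallest that 364 ways of choosing 3 controls allow in a two-sided test. How many of all probe sets separate in this way was not counted, so the lack of overlap cannot be called particular to these genes.

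For the other 5 genes the groups overlapped. Tpsab1 shifted by 3.11 and Mcpt1 by 3.06, each above all controls in 9 of 11 tumors (exact permutation p = 0.016 and 0.022). Kit shifted by 1.58, with 8 of 11 tumors above all controls, and Fcer1a by 1.55, with 10 of 11 (exact permutation p = 0.033 and 0.038). The correlation of Kit with Cpa3 did not pass across tumors (r = 0.32), and the tumor SD was 0.47 for Kit against 1.93 for Cpa3. In each tumor the Kit difference therefore mostly follows the Cpa3 level with its sign turned. Setting Kit against Cpa3 does not take out a shared mast cell signal. Ms4a2 shifted by 0.37, with 7 tumors above and 1 below all controls (exact permutation p = 0.19). The p-values are unadjusted, and 8 genes of the set were compared. Mcpt8 and Mcpt1l1, relatives in the chymase cluster, were tested in the same way. Mcpt8 shifted by 4.78, above all controls in 11 of 11 tumors (exact permutation p = 0.0055). Its control levels were near the bottom of the scale, so, as for Mcpt10, this shift cannot be read. Mcpt1l1 shifted by -0.82, with 2 tumors above and 9 below all controls (exact permutation p = 0.093). A shift shows unequal change of both genes, not which of them changed.

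Relatives in the chymase cluster were also divided. Of 8 measured relatives, 3 were higher and 1 lower in tumors, with a median difference of 0.53, against 24.5% of all probe sets higher, 10.4% lower and a median of 0.34. Mcpt8, a granule protease gene that in mice marks basophils, rose by 4.57 (limma adjusted p = 0.005), from 0.00, 0.53 and 0.93 in the controls to 0.01 to 7.46 in the tumors. Gzmb, the cytotoxic granule protease, rose by 4.04 and Mcpt4 by 1.44, while Gzmn fell by 2.48. The 3 rises depended on low signals, because with levels below 5 raised to 5 none of them was called, at 0.83 for Mcpt8, 2.49 for Gzmb and 0.03 for Mcpt4 (limma adjusted p = 0.22, 0.081 and 0.73), and Gzmn stayed lower (-1.61). Beside Mcpt8, no other of the 5 measured basophil and eosinophil genes was called.

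Genes for the rest of the mast cell machinery were counted from lists, beside 24.5% of all probe sets called higher and a median of 0.34. Of 12 IgE receptor signaling genes 10 were higher in tumors and none lower, with a median of 2.29, led by Vav1 (4.81), Lyn (3.70), Lcp2 (3.65) and Fcer1g (2.74). Of 9 macrophage markers, which share this machinery, 8 were higher, and these markers summed to 2310 to 4640 on control arrays and to 6500 to 41000 on tumor arrays. Of 8 granule matrix and amine genes 4 were higher (median 1.5), namely Rab27b (2.53), Vamp8 (2.13), Cd63 (1.88) and the serglycin gene Srgn (1.52). The amine genes Hdc and Slc18a2 of that list were not called. Of 7 lipid mediator genes 4 were higher (median 1.75), namely Ptgs1 (3.21), Ptgs2 (2.69), Pla2g4a (2.20) and Alox5ap (1.75). With levels raised to 5, Ptgs2 (2.12) and Alox5ap (1.75) were not called. No gene of these 3 lists was lower.

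Of 8 growth and recruitment factors 3 were higher (median 1.28), namely Ccl2 (3.63), Il33 (2.93) and Tslp (1.67). Of 8 other surface receptors 3 were higher (median 1.24), namely the IL-33 receptor gene Il1rl1 (6.76), Cd200r1 (3.30) and Il3ra (1.15). Of 5 transcription factors 2 were higher (median 0.50), Runx1 (2.56) and Tal1 (1.52), and the GATA factors Gata1 (0.13) and Gata2 (0.50) were not called. These 3 counts are nearer to the background share than that of the IgE receptor signaling genes, and nothing is read from them. None of these 3 lists had a lower gene.

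Some genes usually counted as mast cell genes did not follow the proteases in every tumor. Hdc, the histamine-forming enzyme, was at 10.97 in MWCNT D replicate 3, where Cpa3 was low, at 5.05. It was at 11.70 in MWCNT C replicate 1, where Cpa3 was high too, at 10.69, against 5.95 to 8.11 in the other tumors. Enpp3, a surface marker of basophils and mast cells, was at 12.74 and 12.21 in the same tumors, against 8.11 to 10.22 in the others.

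Markers of other tissue components varied with the low tumors in part. The 5 adipocyte markers summed to 448 in MWCNT C replicate 3 and 584 in MWCNT D replicate 3, where the mast cell genes were low, but also to 466 in amosite replicate 1 and 1770 in MWCNT C replicate 1, where Cpa3 was at 9.96 and 10.69. They summed to 4010 to 13300 in the other tumors and 4060 to 8640 in the controls, and none of them was called. The 6 mesothelial markers summed to 43100 and 49200 in those low tumors and to 1670 to 42800 in the others, against 227 to 462 in the controls, and 5 were called higher. For 6 fibroblast markers the sums were 26600 to 74500 in tumors and 29400 to 44500 in controls, with 2 called higher. T and NK cell markers, 3 of 8 called higher, summed to 27600 in MWCNT D replicate 2 and to 416 to 1330 in the other tumors. The part of tissue makeup in the levels of the mast cell genes was not tested.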

How the data were processed

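Total RNA of 11 tumors and 3 control tissues was hybridised to 14 Affymetrix rat arrays. The deposited intensity values, per the labels and the study's methods, are linear probe set signals that the authors normalised with PLIER in the Transcriptome Analysis Console, so array depth has no counts and the number of arrays limits precision. The array medians were 96.9 to 104.3 in controls and 129 to 154 in tumors. Of 31099 probe sets, 57 Affymetrix controls were left out and 31042 tested. The platform annotation gave 1 symbol for 20826 probe sets, several for 436 and none for 9780, and 20758 of the first were found in the RefSeq gene table.

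Groups and tumor types came from the labels. log2(signal + 1) was fitted with limma 3.58.1 (lmFit, eBayes; R 4.3.3) over all 14 arrays, once for tumors against controls, once by inducer and once by tumor type, in 12 comparisons with Benjamini-Hochberg adjustment over all probe sets. Calls needed both an adjusted p under 0.05 and a change over 2-fold, after the study's methods. No filter on low signals was used. Where a gene had several probe sets, the one with the highest mean level over the 14 arrays was used. Single values were compared by exact two-sided permutation tests, and correlations by 100000 permutations (scipy 1.17.1). The fits were tested on simulated data.

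The genes and the 17 other lists were chosen with earlier results of these data known. Every measured gene of the set is named with its values. From each other mast cell list the 4 called genes with the largest change are named. Genes named outside this rule (Kitlg in each type, Mcpt1l1, Hdc, Slc18a2, Enpp3, Gata1, Gata2, Mlana and Pmel) were chosen after their values were seen. Alternatives were quantile normalization, median centring, log2(signal + 16), a floor at log2 5, a minimum mean log2 signal of 6, other moderation, fits of only the groups compared, covariates, a replicate block, another probe set, and leaving out each array. Promoter windows came from RefSeq (GRCr8).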

Additional observations from a re-analysis of the deposited data

Results flagged for a closer look

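A probe set annotated to 4 genes of the chymase cluster (Mcpt8l2, Mcpt9, Mcpt10 and Mcpt8), which no comparison of single genes used, was higher in tumors than in controls by 6.05 on the log2 scale (SE 1.4, limma adjusted p = 0.0022), and by 3.60 with levels below 5 raised to 5 (limma adjusted p = 0.022). Its differences were 7.03 in sarcomatoid, 6.95 in epithelioid and 3.51 in biphasic tumors (limma adjusted p = 0.00080, 0.0021 and 0.066). Which of the 4 genes it read cannot be told apart. Among the 5 sarcomatoid tumors, the type with enough arrays for a check of single far values, no gene of the set had one.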

How the results depend on the processing

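Counts are of the 9 measured genes called. Against 2 in tumors, 1 was called after quantile normalization, after median centring, with log2(signal + 16) and with the floor at log2 5, and 0 with a minimum mean log2 signal of 6, which leaves Mcpt10, Ms4a2 and Kit untested. The minimum also gave 0 for tumors of each MWCNT and for epithelioid tumors, 1 for amosite tumors and 2 for sarcomatoid tumors. log2(signal + 16) and the floor each gave 0 for MWCNT B and MWCNT C and 1 for MWCNT D and epithelioid tumors, and the floor gave 1 for amosite tumors. Quantile normalization and median centring each gave 1 for MWCNT D and epithelioid tumors and 2, both lower, for biphasic tumors. For MWCNT D tumors, 1 was also called without moderation, with trend and robust moderation, with only the groups compared and without the arrays with pancreatic signal, an alternative chosen after seeing the data. Fitting only the groups compared gave 2 for MWCNT C tumors and 7 for sarcomatoid tumors, and tumor type as a covariate gave 2 for MWCNT C tumors and 3 for MWCNT D tumors, adding Mcpt1 (3.87, limma adjusted p = 0.032). With the floor, 1 gene in place of 2 had an exact permutation p below 0.05 for its level. Without the 2 tumors farthest from the median, 12 of 36 pairs of genes in place of 24 passed. Leaving out each array in turn gave 1 to 3 called genes in tumors, 0 to 2 in MWCNT B, 0 to 4 in MWCNT C, 1 to 3 in MWCNT D, 1 to 3 in amosite, 2 to 5 in sarcomatoid, 1 to 4 in biphasic and 1 to 3 in epithelioid tumors, and 0 to 4 for sarcomatoid against biphasic tumors. No called value changed sign. No cause was tested.

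Replicate numbers did not pair the samples: deviations from group means correlated at a mean r of 0.03 (-0.29 to 0.39) in 26 pairs of the same number and -0.01 in 52 others. The replicate block left 2 genes called in tumors and added Mcpt1 in MWCNT D tumors (limma adjusted p = 0.014), where 3 were called.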
